A study of Mus musculus with 22 samples.

Results

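Transcripts of 9 genes that dispose of nitrogen in the liver were followed in RNA-seq counts of 22 mouse livers. The genes were the urea cycle enzymes Cps1, Otc, Ass1 and Asl, the activating enzyme gene Nags, the ornithine carrier gene Slc25a15, and 3 genes of periportal amino acid breakdown, Sds, Hal and Gls2. Members were found by exact gene symbol, each matched 1 of the 55573 rows of the count table, and all 9 were among the 14062 genes that passed the filter on low counts (a mean of at least 10 counts). The study asked how loss of folliculin (FLCN, encoded by Flcn) in the liver alters a diet model of steatohepatitis. C57BL/6 mice were given chow or a methionine- and choline-deficient (MCD) diet from 6 weeks of age for 6 weeks, and 1 library was made from the liver of each mouse. The groups were Cre Chow (n = 6), Cre MCD (n = 5), FLCN KO Chow (n = 5) and FLCN KO MCD (n = 6). FLCN KO mice carried Flcn f/f with Albumin-Cre, and the Cre controls were Flcn WT/WT; Albumin-cre+/- mice, so that all 4 groups carried the recombinase. The albumin promoter drives Cre in hepatocytes, and these whole-tissue libraries also hold RNA of other liver cells, in which Flcn was not measured apart. In bulk tissue, fewer cells of a type and less RNA per cell cannot be told apart.

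The urea cycle turns ammonia into urea, and the complete cycle runs in hepatocytes. Its first steps, catalysed by carbamoyl phosphate synthetase (Cps1) and ornithine transcarbamylase (Otc), lie in the mitochondrion, and argininosuccinate synthetase (Ass1) and argininosuccinate lyase (Asl) act in the cytosol. The enzymes are most abundant around the portal vein, where glutaminase, histidine ammonia-lyase and serine dehydratase also release ammonia from amino acids, whereas glutamine synthetase captures what is left around the central vein.

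RefSeq promoter windows on GRCm38.p6, from 250 bases before to 50 after the start site, were held for 5 of the 9 members (Otc, Ass1, Hal, Nags and Slc25a15). The windows of 3 of them are shown because their transcripts behaved differently below. Otc changed most on the MCD diet, and Ass1 changed by nearly the same amount in both genotypes. Hal was called higher in FLCN KO on the MCD diet, a call that was lost in several settings given below. Capitals mark matches, on either strand, to an HNF4-type element (AAAGTNCA), a C/EBP-type element (TTGCNNAA), the E-box CACGTG, the CRE half-site TGACG or the TATA box TATAAA. The Otc window is chrX:10252055-10252354 on the plus strand, the Ass1 window chr2:31470020-31470319 on the plus strand, and the Hal window chr10:93488518-93488817 on the plus strand.
Otc: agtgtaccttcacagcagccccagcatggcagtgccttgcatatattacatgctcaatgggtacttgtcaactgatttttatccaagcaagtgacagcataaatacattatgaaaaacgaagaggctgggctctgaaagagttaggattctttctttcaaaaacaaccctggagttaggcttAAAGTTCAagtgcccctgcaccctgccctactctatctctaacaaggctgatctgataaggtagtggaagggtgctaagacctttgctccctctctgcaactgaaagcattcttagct
Ass1: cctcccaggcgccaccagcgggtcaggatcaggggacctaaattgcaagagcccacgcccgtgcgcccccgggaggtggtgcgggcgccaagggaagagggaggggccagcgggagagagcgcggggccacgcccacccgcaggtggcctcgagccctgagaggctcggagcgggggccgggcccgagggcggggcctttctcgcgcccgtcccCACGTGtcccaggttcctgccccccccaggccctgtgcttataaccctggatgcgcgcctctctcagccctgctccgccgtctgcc
Hal: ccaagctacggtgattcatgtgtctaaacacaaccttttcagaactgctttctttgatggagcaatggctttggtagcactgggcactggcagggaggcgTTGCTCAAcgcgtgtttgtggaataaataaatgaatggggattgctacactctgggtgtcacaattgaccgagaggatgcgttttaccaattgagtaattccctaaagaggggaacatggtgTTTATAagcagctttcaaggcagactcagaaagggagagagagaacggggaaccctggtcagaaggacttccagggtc
The Otc window held 1 HNF4-type match, whose first base lies 68 bases before the start site, and 4.12% of the 32851 promoter windows of the same length held at least 1. The Ass1 window held 1 CACGTG match, found in 7.15% of windows, 36 bases before the start site. The Hal window held 1 C/EBP-type match, found in 10.8% of windows, and 1 TATA box on the minus strand, found in 13.6% of windows on either strand. Of the windows not shown, that of Nags held 1 CRE half-site (20.8% of windows), and 1 of 2 windows of Slc25a15 held 1 CACGTG match, 77 bases before its start site. These are matches of letters, and no binding was measured.

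The total count per library was 15276157 to 19417246 in Cre Chow and 18201287 to 21144388 in Cre MCD. In FLCN KO Chow it was 13751347 to 19645473, and in FLCN KO MCD 16616132 to 20706657. Levels are given as CPM, read counts scaled to a common library size with TMM factors. Flcn itself had 31.7 CPM ± 4.9 (SD, n = 6) in Cre Chow and 20.4 ± 2.78 (n = 5) in FLCN KO Chow, without overlap (log2 fold change -0.63, SE 0.17, adjusted p = 0.0249), and the call was lost without Cre Chow 6 (adjusted p = 0.0564), FLCN KO Chow 3 (0.0663) or FLCN KO Chow 4 (0.0688). It was also lost with library totals (-0.48, adjusted p = 0.0669), with libraries scaled on hepatocyte genes (-0.34, 0.15), without the 5 libraries with few uniquely mapped reads described next (-0.55, 0.241), in females (-0.55, 0.0984) and males (-0.69, 0.238) alone, and without the 4 females with Y-gene counts (-0.60, 0.152). On the MCD diet Flcn had 29.1 CPM ± 8.41 (n = 5) in Cre and 26.0 ± 5.12 (n = 6) in FLCN KO, with overlapping groups (log2 fold change -0.16, adjusted p = 0.567). Counts over the whole gene include exons outside a deletion and RNA of other liver cells, so on the MCD diet they do not check the labels, and differences there are between livers labelled FLCN KO and Cre. The study reports that p62 mRNA, from its RNA-seq, was higher in Flcn KO livers and did not change with the diet.

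Some libraries stood apart. Cre MCD 3 held skeletal muscle transcripts, with a summed 3147 CPM over 10 muscle genes (Myh1 the most abundant) against a median of 19.9 CPM in its group. Cre MCD 4 (152 CPM) and FLCN KO MCD 3 (69.5 CPM) held smaller amounts, and the other 19 libraries had at most 19.9 CPM, with a median of 1.67 CPM. The labels give no sex, but Xist and 4 Y-linked genes placed 3 female and 3 male livers in Cre Chow, 3 and 2 in Cre MCD, 3 and 2 in FLCN KO Chow, and 3 and 3 in FLCN KO MCD. In 4 libraries placed as female (Cre MCD 1, FLCN KO Chow 2, FLCN KO Chow 4 and FLCN KO MCD 3) the Y-linked genes had 214 to 675 counts, against 1906 to 4321 in males. In the study's quality sheet 5 chow libraries had few uniquely mapped reads (Cre Chow 1, 5 and 6, FLCN KO Chow 1 and 3), and all 5 were male, so read quality and sex cannot be told apart on chow.

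Per kilobase of exon, which makes levels of different genes comparable, Ass1 stood highest in Cre Chow at 1183 CPM per kb ± 243 (SD, n = 6). Cps1 (895 ± 194) followed, and although the spreads of the 2 genes over livers overlapped, Ass1 stood above Cps1 within each of the 22 livers. A second tier ran from Otc (185 ± 9.85) and Gls2 (175 ± 30.6) to Asl (137 ± 15.6), Hal (133 ± 30.6) and Sds (132 ± 8.56), with the last 3 within each other's spread and in no fixed order within livers (Asl above Hal in 3 of 6, Hal above Sds in 4 of 6). Slc25a15 (86.4 ± 13.1) and Nags (28.7 ± 6.31) were lowest. In Cre MCD Ass1 (525 ± 75.5 CPM per kb, n = 5) and Cps1 (451 ± 102) were still highest, with overlapping spreads over livers. Otc moved from the third place to the seventh there, at 27.7 ± 13.4 CPM per kb, level with Sds (27.5 ± 11.1) and below Asl, Gls2, Slc25a15 and Hal. In FLCN KO Chow the order was that of Cre Chow, and in FLCN KO MCD Otc (33.1 ± 8.9 CPM per kb, n = 6) stood eighth, above Nags alone (15.2 ± 2.29). Together the 9 members took 0.965% ± 0.162 (SD, n = 6) of all counted reads in Cre Chow and 0.568% ± 0.107 (n = 5) in Cre MCD, and 0.87% ± 0.125 (n = 5) and 0.56% ± 0.0748 (n = 6) in FLCN KO Chow and FLCN KO MCD.

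**Figure D1:**
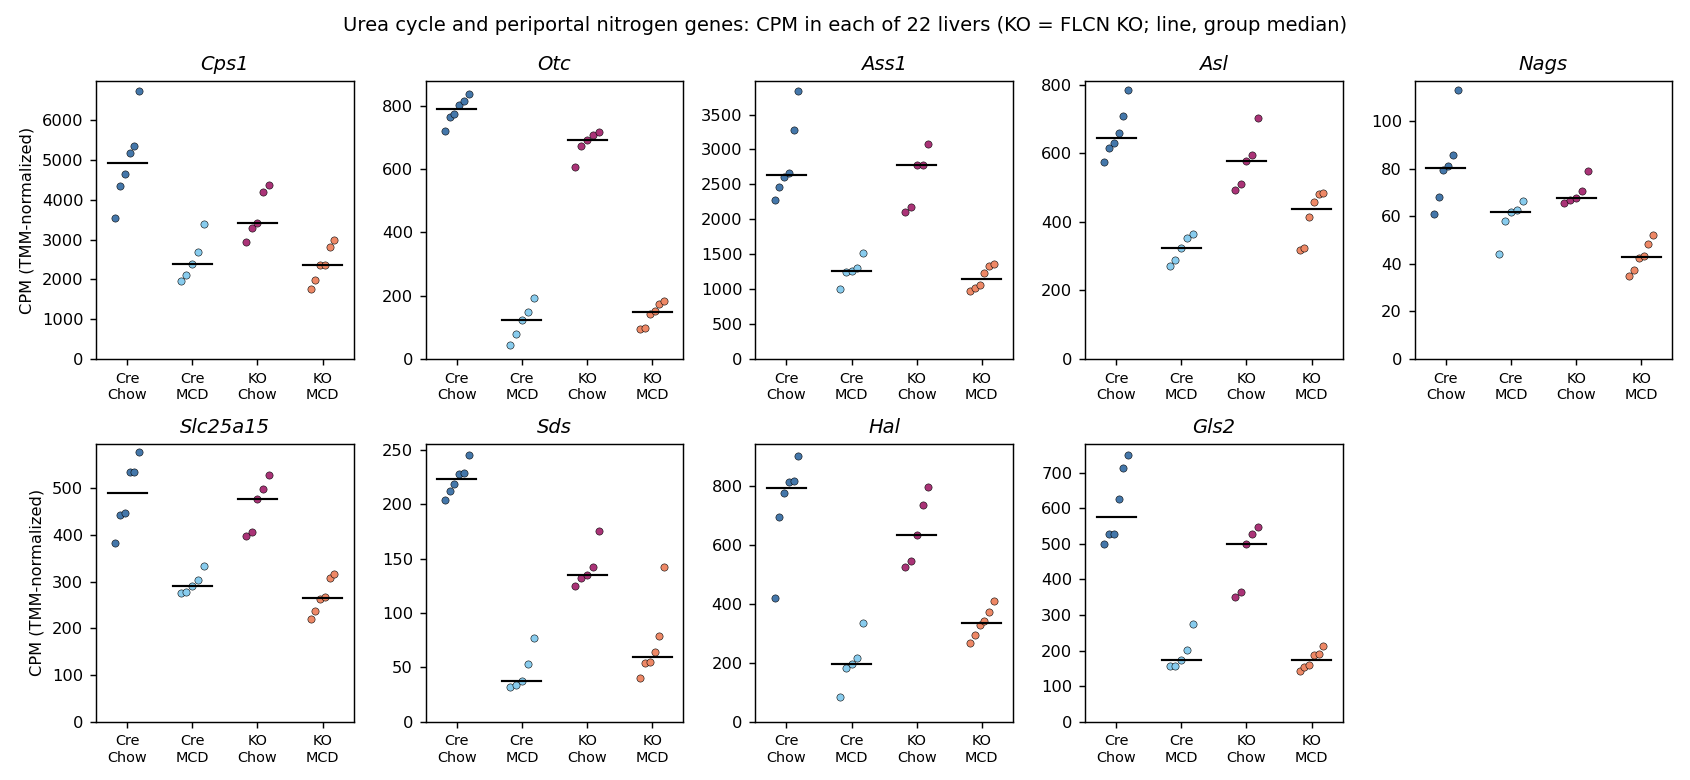
CPM (linear axis from 0) of each member in each of 22 livers by group, with a line at the group median. All Otc, Ass1 and Gls2 points on the MCD diet lie below all chow points of the same genotype, Otc at 45.0 to 191 CPM in Cre MCD against 722 to 839 in Cre Chow.

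The MCD diet lowered all 9 members in both genotypes. In Cre livers 9 of 9 fell, where 57.5% of all tested genes were called (28.2% lower, 29.3% higher), and in 8 of them, all but Nags, the Cre MCD and Cre Chow libraries did not overlap (32.5% of tested genes in either direction, 16.9% lower). The median log2 fold change of the members was -1.17, beside 0.01 for all tested genes, and the range ran from -0.48 (Nags) to -2.74 (Otc). In FLCN KO livers 9 of 9 fell (45% of tested genes were called, 22.5% lower), 7 without overlap, all but Cps1 and Sds (29.2% in either direction, 14.8% lower), and the median was -0.95, beside 0.00. These 9 and 9 calls were the same with each of the 22 libraries left out in turn. How libraries are scaled bears on these falls. With library totals in place of TMM the median of all tested genes moved to 0.43 in Cre and 0.27 in FLCN KO, and 8 members (all but Nags) and 7 (all but Cps1 and Asl) were called lower. When libraries were scaled on 14 hepatocyte genes instead, 4 members stayed lower in Cre (Otc, Sds, Hal and Gls2) while Nags was called higher and Slc25a15 had a positive value, and 3 stayed lower in FLCN KO (Otc, Ass1 and Gls2) while Asl had a positive value. That scaling moved the median of all tested genes to 0.86 and 0.58, and gave Nags 0.36, Slc25a15 0.13 and Asl 0.08. A change of scaling shifts all genes of a comparison together. That these 3 values lay below the medians therefore repeats the TMM result and does not show which scaling is right.

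Calls of members between the genotypes are set beside the share of all tested genes called. On chow all 9 log2 fold changes of FLCN KO against Cre were negative (median -0.21, beside -0.03 for all tested genes), of which Ass1 and Slc25a15 turned positive with library totals and 6 with scaling on hepatocyte genes (Otc, Ass1, Asl, Nags, Slc25a15 and Hal). No member was called on chow by edgeR, limma-voom or DESeq2, where edgeR called 8.62% of tested genes (3.1% lower, 5.52% higher). Members without overlap on chow were Otc and Sds (6.94% of tested genes in either direction, 2.93% lower, 4.01% higher). On the MCD diet Nags was lower and Hal higher in FLCN KO, where 16.6% of tested genes were called (8.53% lower, 8.06% higher), no member was free of overlap (8.61% in either direction, 3.53% lower and 5.08% higher), and the median was -0.07 beside -0.01. The response to the diet differed between the genotypes for Sds alone, less negative in FLCN KO, where 8.83% of tested genes were called (3.29% higher, 5.54% lower). By scaling on hepatocyte genes this difference in response was not called and the MCD calls were Asl and Hal, both higher, and without the 5 libraries with few uniquely mapped reads the difference in response was not called either. All MCD and interaction calls were lost without the 4 female libraries with over 200 Y-gene counts, which leaves 18 libraries. Members with an unadjusted p under 0.05 in edgeR's quasi-likelihood test numbered 3 on chow, 4 on MCD and 3 for the difference in response, where 23.5%, 29.8% and 24.5% of tested genes had one. Comparisons of diets and of genotypes share groups, so their values are not independent of one another.

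**Figure D2:**
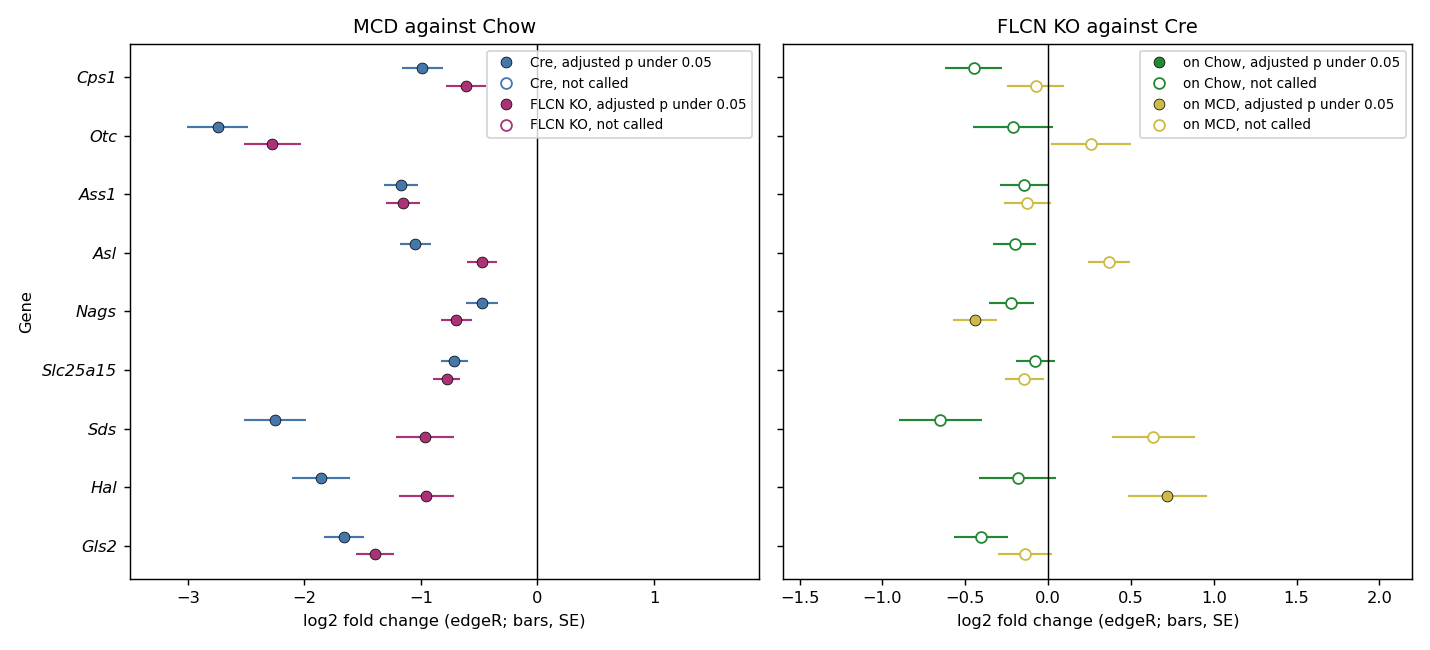
Log2 fold changes (edgeR, bars are SE) of the 9 members for MCD against Chow in each genotype (left) and FLCN KO against Cre on each diet (right); filled points have an adjusted p under 0.05. The diet values are negative throughout, from -0.48 to -2.74, and turn positive for Nags and Slc25a15 in Cre and Asl in FLCN KO if libraries are scaled on hepatocyte genes, whereas the genotype values lie between -0.65 and 0.72.

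Nags (chr11:102145513-102149477) makes N-acetylglutamate, the obligatory activator of carbamoyl phosphate synthetase. It ranged from 61.1 to 113 CPM in Cre Chow (median 80.4), and was 61.6, 66.5, 44.0, 57.8 and 62.4 CPM in Cre MCD 1 to 5. In FLCN KO Chow its values were 67.5, 78.8, 66.7, 70.8 and 65.7 CPM, and in FLCN KO MCD it ran from 34.8 through a median of 42.8 to 52.2 CPM. The Cre MCD livers reached into the chow range in 3 of 5 cases, while every FLCN KO MCD liver lay below every FLCN KO Chow liver. Nags fell on the MCD diet to 71.8% of the chow level in Cre (log2 fold change -0.48, SE 0.13, adjusted p = 0.00456) and to 61.6% in FLCN KO (-0.70, SE 0.13, adjusted p = 0.000226), with a difference in response of -0.22 (adjusted p = 0.518). It was lower in FLCN KO on the MCD diet (-0.44, SE 0.13, adjusted p = 0.0264), although 1 Cre liver, Cre MCD 3, lay among the FLCN KO values. That call was lost without Cre MCD 1, 2 or 5 or FLCN KO MCD 1 or 4 (adjusted p up to 0.0618).

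Cps1 (chr1:67123026-67231259) commits ammonia to the cycle. Its mean was 4972 CPM ± 1080 (SD, n = 6) in Cre Chow, 2508 ± 569 (n = 5) in Cre MCD, 3645 ± 618 (n = 5) in FLCN KO Chow and 2381 ± 468 (n = 6) in FLCN KO MCD. The fall on the diet was -0.99 on the log2 scale in Cre (SE 0.17, adjusted p = 6.12e-05), without overlap, and -0.61 in FLCN KO (SE 0.17, adjusted p = 0.0056), with overlap. On chow the FLCN KO value was 73.3% of Cre (log2 fold change -0.45, adjusted p = 0.11), which did not pass.

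Otc (chrX:10252305-10321024) joins carbamoyl phosphate to ornithine. It ranged from 722 to 839 CPM in Cre Chow (median 789.9), and was 148, 45.0, 191, 122 and 80.6 CPM in Cre MCD 1 to 5. The FLCN KO Chow values were 672, 692, 709, 608 and 716 CPM, and in FLCN KO MCD it ran from 93.6 through a median of 148 to 183 CPM. Every MCD liver of either genotype lay below every chow liver, by a wide gap, and the FLCN KO Chow values all lay just under the Cre Chow range. Otc fell on the MCD diet to 14.9% of the chow level in Cre (log2 fold change -2.74, SE 0.26, adjusted p = 2.4e-08) and to 20.7% in FLCN KO (-2.28, SE 0.25, adjusted p = 2.53e-07). In both genotypes the two-sided exact permutation p was 0.00216, the smallest that 6 against 5 livers allow. The difference in response was 0.47 (SE 0.34, adjusted p = 0.428), 0.26 without Cre MCD 2 and 0.72 without Cre MCD 3, neither called, and the chow difference between genotypes was -0.21 (SE 0.24, adjusted p = 0.644) in the fit across all genes, beside an exact permutation p of 0.00433 over its 11 tightly grouped livers.

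Slc25a15 (chr8:22375551-22398597) carries ornithine into the mitochondrion in exchange for citrulline. It fell to 61.0% of the chow level in Cre (log2 fold change -0.71, SE 0.12, adjusted p = 2.61e-05) and to 58.3% in FLCN KO (-0.78, SE 0.12, adjusted p = 1.32e-05), both without overlap. Its CPM ran from 382 to 577 in Cre Chow, 276 to 334 in Cre MCD, 397 to 529 in FLCN KO Chow and 220 to 317 in FLCN KO MCD. The genotypes overlapped on both diets.

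Ratios within a liver do not depend on how libraries are scaled, and those given here were chosen after their values were seen, so they are described without a test. Otc CPM was 11.9 to 20.3% of Cps1 CPM in Cre Chow and 1.68 to 6.2% in Cre MCD. In FLCN KO it was 15.8 to 22.9% on chow and 4.88 to 7.74% on MCD. Transcripts of these consecutive mitochondrial enzymes thus did not fall in proportion, with no overlap between diets in either genotype and overlap between genotypes on each diet.

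Ass1 (chr2:31470207-31520672), which joins citrulline to aspartate, fell almost equally in both genotypes. It went from 2855 CPM ± 588 (SD, n = 6) to 1267 ± 182 (n = 5) in Cre and from 2583 ± 423 (n = 5) to 1162 ± 166 (n = 6) in FLCN KO. The log2 fold changes were -1.17 (SE 0.15, adjusted p = 8.9e-07) and -1.15 (SE 0.14, adjusted p = 1.5e-06), and the difference between them was 0.02 (SE 0.20, adjusted p = 0.967). A processed pseudogene, Gm5424 (chr10:62071123-62072362), held 2.21 to 2.49% as many counts as Ass1 in every library, so a small part of the reads may be shared between the pair.

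Asl (chr5:130011258-130029247) splits argininosuccinate into arginine and fumarate. It ranged from 575 to 785 CPM in Cre Chow (median 644), and was 271, 288, 354, 365 and 324 CPM in Cre MCD 1 to 5. Values in FLCN KO Chow were 578, 493.1, 511, 704 and 594 CPM, and in FLCN KO MCD it ran from 317 through a median of 437 to 485 CPM. The chow and MCD livers of each genotype did not overlap, but in FLCN KO the gap was narrow, and on the MCD diet 4 FLCN KO livers lay above all Cre livers. Asl fell by 1.05 on the log2 scale in Cre (SE 0.13, adjusted p = 8.56e-07) and by 0.48 in FLCN KO (SE 0.13, adjusted p = 0.00417). The genotype difference on MCD was 0.37 (SE 0.13, adjusted p = 0.0536) and the difference in response was 0.57 (SE 0.18, adjusted p = 0.0534). Both lay just outside the threshold, and both passed it without Cre MCD 3, the library with muscle transcripts (adjusted p = 0.0487 and 0.0447), and with DESeq2 (adjusted p = 0.0355 and 0.028). They also passed without FLCN KO Chow 4, FLCN KO MCD 4 or FLCN KO MCD 5, and the MCD difference passed without Cre Chow 1. In other settings both were weaker. With single libraries left out the adjusted p reached 0.144 for the MCD difference and 0.104 for the difference in response. Over the other planned settings, each with its own test, it reached 0.126 and 0.326. The difference in response was as low as 0.29 there.

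**Figure D3:**
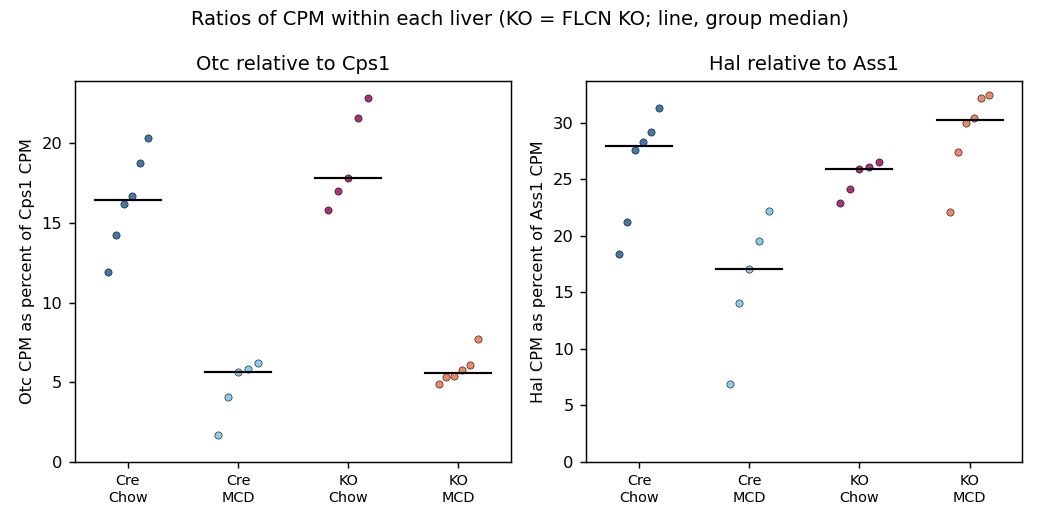
CPM of Otc as a percent of Cps1, and of Hal as a percent of Ass1, within each of 22 livers by group, with a line at the group median and linear axes from 0. Otc relative to Cps1 falls from 11.9 to 20.3% in Cre Chow to 1.68 to 6.2% in Cre MCD, and Hal relative to Ass1 is 6.86 to 22.2% in Cre MCD.

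Sds (chr5:120476526-120483932) deaminates serine and threonine and is induced by glucagon and glucocorticoids. It ranged from 204 to 245 CPM in Cre Chow (median 224), and was 33.8, 37.4, 76.9, 53.2 and 32.0 CPM in Cre MCD 1 to 5. The 5 FLCN KO Chow livers held 124, 143, 132, 135 and 175 CPM, and in FLCN KO MCD it ran from 39.8 through a median of 59.7 to 142 CPM. Cre Chow lay above every other liver, and the high FLCN KO MCD value came from 1 liver, FLCN KO MCD 1, while the other 5 were at most 79.2 CPM. Sds fell to 20.9% of the chow level in Cre (log2 fold change -2.26, SE 0.27, adjusted p = 3.87e-07) and to 51.1% in FLCN KO (-0.97, SE 0.25, adjusted p = 0.0031), and the difference in response was 1.29 (SE 0.36, adjusted p = 0.028). Without Cre MCD 1, Cre MCD 5 or FLCN KO Chow 4 the difference in response missed the threshold (adjusted p = 0.0575, 0.0519 and 0.0514).

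The Sds value of FLCN KO against Cre was -0.65 on chow (SE 0.25, adjusted p = 0.111, exact permutation p = 0.00216, no overlap) and 0.64 on MCD (SE 0.25, adjusted p = 0.0897). The chow value passed without FLCN KO MCD 1 (adjusted p = 0.0386), and the MCD value without Cre MCD 3 (0.89, adjusted p = 0.0155) or FLCN KO MCD 4 (0.76, adjusted p = 0.0374). Without FLCN KO MCD 1, the liver with the high value, the MCD difference was 0.33 (adjusted p = 0.296). Without all 3 libraries with over 50 CPM of muscle genes it was 1.15 (adjusted p = 0.0115). Sds shares 360 exonic bases with Plbd2 on the opposite strand. Whether the counting used strand is not given in the sources used here, so reads from the overlap cannot be told apart. The paralog Sdsl, at 12.0 CPM ± 3.52 (SD, n = 6) in Cre Chow, rose by 1.13 on the log2 scale on the MCD diet in FLCN KO (adjusted p = 7.65e-05), with a value of 0.17 in Cre (adjusted p = 0.476).

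Hal (chr10:93488768-93519304) starts histidine breakdown by releasing ammonia. It ranged from 419.5 to 904 CPM in Cre Chow (median 795), and was 183, 85.7, 337, 216 and 197 CPM in Cre MCD 1 to 5. For FLCN KO Chow the values were 527, 738, 548, 636 and 798 CPM, and in FLCN KO MCD it ran from 269 through a median of 335 to 409 CPM. Chow and MCD livers did not overlap in either genotype, and on the MCD diet Cre MCD 3 alone among Cre livers reached the FLCN KO range. Hal fell to 27.6% of the chow level in Cre (log2 fold change -1.86, SE 0.25, adjusted p = 1.82e-06) and to 51.7% in FLCN KO (-0.95, SE 0.23, adjusted p = 0.00215).

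Hal was 1.65-fold higher in FLCN KO on the MCD diet (log2 fold change 0.72, SE 0.24, adjusted p = 0.04, exact permutation p = 0.0108). The call was lost without any 1 of Cre MCD 1, 2, 4 or 5 or FLCN KO MCD 1, 2, 3, 5 or 6 (adjusted p up to 0.0895), and without Cre MCD 3 the value was 0.98 (adjusted p = 0.00489). It was also lost in males alone (0.27, adjusted p = 0.697) and without the 4 females with Y-gene counts (0.65, adjusted p = 0.177). With only the groups compared the value was 0.72 (adjusted p = 0.0753). The difference in response was 0.90 (SE 0.33, adjusted p = 0.0911) and passed without Cre MCD 3 (1.16, adjusted p = 0.019) or Cre Chow 6 (1.02, adjusted p = 0.0456). Relative to Ass1 within a liver, Hal CPM was 6.86 to 22.2% in Cre MCD and 22.1% or more in every FLCN KO MCD liver.

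Gls2 (chr10:128194457-128210004), the liver-type glutaminase, fell to 31.7% of the chow level in Cre (log2 fold change -1.66, SE 0.17, adjusted p = 5.64e-08) and to 38.0% in FLCN KO (-1.40, SE 0.16, adjusted p = 7.05e-07), both without overlap. Its CPM ran from 499 to 751 in Cre Chow, 156 to 274 in Cre MCD, 350.4 to 548 in FLCN KO Chow and 142 to 214 in FLCN KO MCD. Glul, the pericentral glutamine synthetase gene, fell by 0.94 in Cre (adjusted p = 0.000126) and by 1.07 in FLCN KO (adjusted p = 4.22e-05).

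Genes outside the 9 are described list by list, by counts and medians. Because the falls of whole lists depend on the scaling as those of the members do, counts with library totals and with scaling on hepatocyte genes stand beside them where the majority turned. Of all tested genes, 28.2% were called lower and 29.3% higher on the MCD diet in Cre, and 22.5% and 22.5% in FLCN KO. Between genotypes, 3.1% were lower and 5.52% higher in FLCN KO on chow, and 8.53% and 8.06% on MCD. For the difference in response these shares were 5.54% and 3.29%. Of 12 other tested genes of histidine, serine, threonine and glycine breakdown, 11 fell on the MCD diet in Cre (median -0.89, beside 0.01 for all tested genes) and 8 fell and 2 rose in FLCN KO (-0.53), which became 4 fallen and 4 risen, and 2 fallen and 3 risen, with scaling on hepatocyte genes. Uroc1 and Amdhd1 act after Hal in histidine breakdown. Uroc1 had log2 fold changes of -1.34 in Cre and -1.25 in FLCN KO, and Amdhd1 of -1.66 and -0.58, all called. Between genotypes on the MCD diet 5 of the 12 were higher and 1 lower in FLCN KO (8.06% and 8.53% of all tested genes). Amdhd1 was higher by 0.85 (adjusted p = 2.45e-06), and it also differed in its response to the diet (1.08, adjusted p = 7.82e-05). Agxt, the peroxisomal alanine-glyoxylate aminotransferase gene, fell by 1.52 and 1.72.

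Genes that supply the cycle with bicarbonate and aspartate moved in both directions. Among 14 tested, 7 fell and 4 rose in Cre and 4 fell and 4 rose in FLCN KO, and with library totals 4 fell and 5 rose, and 1 fell and 6 rose. Car5a, the mitochondrial carbonic anhydrase that makes bicarbonate for Cps1, fell by 2.96 in Cre (adjusted p = 1.4e-07) and by 2.84 in FLCN KO (adjusted p = 2.5e-07). Mdh2, the mitochondrial malate dehydrogenase gene, rose by 1.11 and 1.2. Glud1, which releases ammonia from glutamate, was lower in FLCN KO on both diets (-0.50 on chow, adjusted p = 0.00406; -0.46 on MCD, adjusted p = 0.00493). Sirt3, a mitochondrial deacetylase gene, fell by 1.07 in Cre and 0.37 in FLCN KO, the latter lost without FLCN KO Chow 1 (-0.27, adjusted p = 0.0553).

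In the routes that branch from ornithine and arginine, 7 of 14 tested genes fell and 3 rose in Cre (2 fell and 7 rose with scaling on hepatocyte genes), and 9 fell and 3 rose in FLCN KO. Those that rose most were the proline and ornithine synthesis genes Pycr1 (3.87 in Cre, 2.27 in FLCN KO) and Aldh18a1 (3.47 and 1.48), and Pycr1 was lower in FLCN KO than in Cre on the MCD diet (-1.46, adjusted p = 0.000376). Prodh2, of hydroxyproline breakdown, fell by 1.93 and 1.15. Of 17 tested genes that handle glutamine and ammonia outside the cycle, 7 rose and 7 fell in Cre (9 rose and 2 fell with scaling on hepatocyte genes) and 6 rose and 9 fell in FLCN KO (6 rose and 4 fell). Asns, which makes asparagine from aspartate and glutamine nitrogen, rose by 5.02 (6.39 without Cre Chow 6) and 3.76, whereas Aspg, an asparaginase gene, fell by 1.58 and 0.39 and was higher in FLCN KO on MCD (1.19, adjusted p = 7.63e-06). The Aspg fall in FLCN KO was lost without FLCN KO Chow 2 or FLCN KO MCD 4 or 5 (adjusted p up to 0.0616).

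Of 20 hormone and transcription regulators of urea cycle genes, 16 fell and 1 rose in Cre on the MCD diet (median -0.71), and 10 fell and 1 rose in FLCN KO (-0.37), whereas with scaling on hepatocyte genes 2 fell and 9 rose in Cre and 1 fell and 7 rose in FLCN KO. Onecut1, a hepatocyte factor, fell by 2.77 and 2.31, but 1 liver held much of its chow level in each genotype (39.1 CPM beside a median of 6.31 in Cre Chow, 22.5 beside 5.06 in FLCN KO Chow). Without Cre Chow 6 the Onecut1 value was -1.93 in Cre (adjusted p = 0.00278), and without FLCN KO Chow 2 it was -1.56 in FLCN KO (adjusted p = 0.0316). Foxa2, which acts in the response to glucagon and fasting, fell by 1.44 and 0.68, the latter lost without FLCN KO Chow 2 (-0.41, adjusted p = 0.0714). Hnf4a, a nuclear receptor that marks hepatocytes, fell by 0.68 in Cre (adjusted p = 7.01e-05) and had a value of -0.20 in FLCN KO (adjusted p = 0.182), and the difference in response did not pass (0.48, adjusted p = 0.0806). Ppargc1a, a coactivator of gluconeogenic genes, rose in both genotypes (0.55 and 1.05) and was higher in FLCN KO on MCD (1.10, adjusted p = 0.000961). Its rise in Cre was lost without Cre Chow 1, 2, 5 or 6 (adjusted p up to 0.0569) or Cre MCD 3 (0.31, adjusted p = 0.153).

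**Figure D4:**
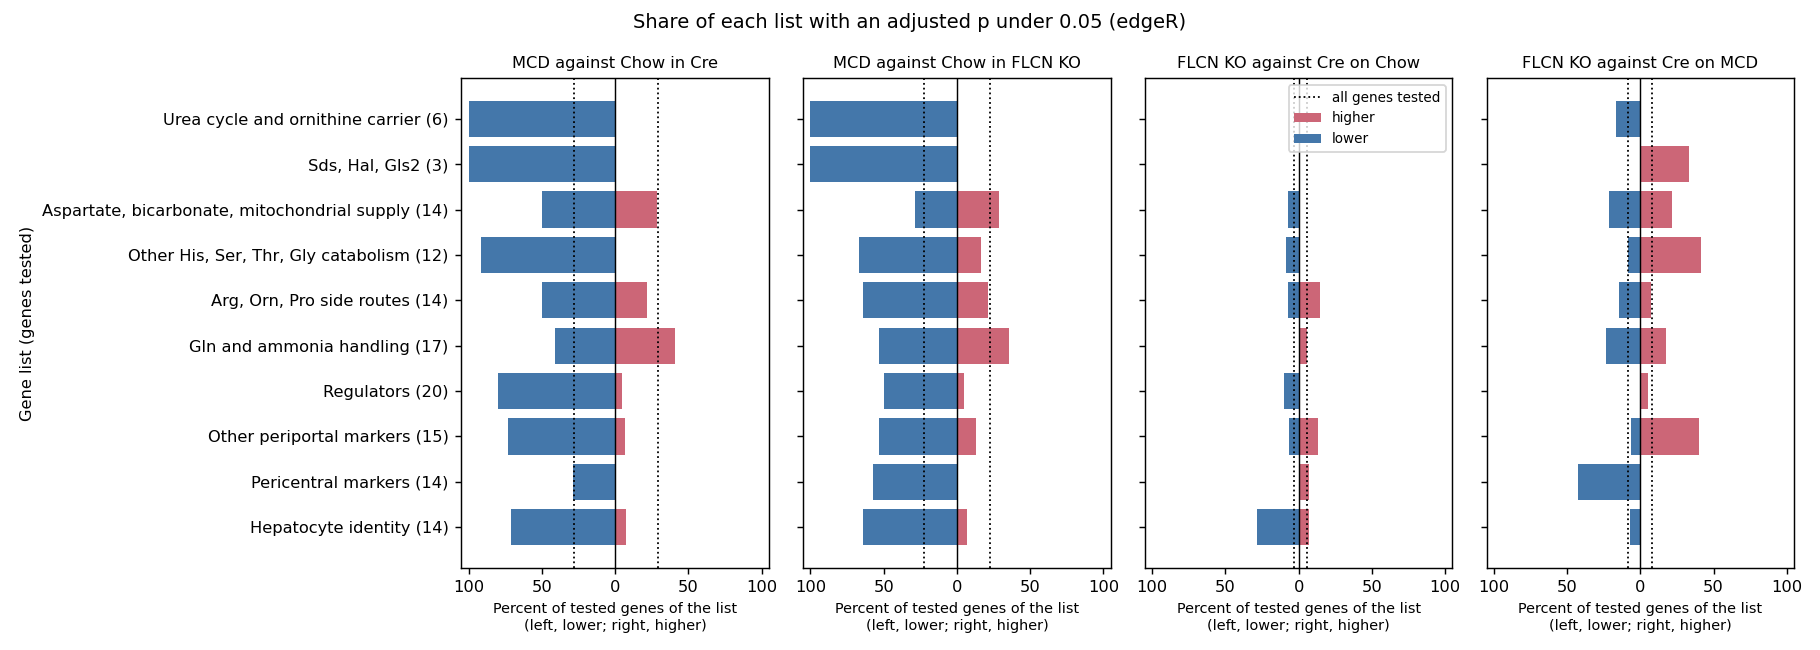
Percent of the tested genes of each list that were called lower (left of 0) or higher (right of 0) in 4 comparisons, with dotted lines at the percent of all 14062 tested genes. In Cre on the MCD diet the urea cycle list is at 100% lower and the other periportal markers at 11 of 15, while the pericentral markers are at 4 of 14 (4 lower and 7 higher with library totals). There 28.2% of all tested genes were called lower.

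The enzymes of the urea cycle are most abundant around the portal vein, but zones were not measured in these whole-tissue libraries. Other genes used as markers of periportal hepatocytes were counted beside the members. Of 15 other periportal markers 11 fell and 1 rose on the MCD diet in Cre (median -1.08), and 8 fell and 2 rose in FLCN KO (-0.48), which became 3 fallen and 4 risen in FLCN KO with scaling on hepatocyte genes. Of 14 tested pericentral markers 4 fell in Cre (-0.12), where with library totals 4 fell and 7 rose, and 8 fell in FLCN KO (-0.78). Of all tested genes 28.2% were called lower in Cre and 22.5% in FLCN KO. On the MCD diet 6 of the 15 periportal markers were higher and 1 lower in FLCN KO (median 0.55), among them Hsd17b6 (1.87, adjusted p = 0.00553), Etnppl (1.37, adjusted p = 6.9e-06) and Pigr (1.37, adjusted p = 0.000196), and 6 of the 14 pericentral markers were lower (median -0.43), among them Lgr5 (-1.30), Gulo (-1.06) and Rgn (-0.99). In that comparison 8.06% of all tested genes were called higher and 8.53% lower. Of the members, Hal was called higher and Nags lower there, and 7 were not called. The 9 had a median of -0.07, with 5 negative and 4 positive values.

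Markers of hepatocytes as a whole also fell. On the MCD diet the hepatocyte gene Hpx rose in Cre but not in FLCN KO (mean 6910 CPM on chow, 6795 on MCD). Of 14 hepatocyte genes 10 fell and Hpx alone rose in Cre (median -0.91), and 9 fell and 1 other rose in FLCN KO (-0.66). Their summed level, led by Alb, had a median of 172696 CPM in Cre Chow (155424 to 213710), 131989 in Cre MCD (95987 to 136205), 155914 in FLCN KO Chow (129886 to 170884) and 108989 in FLCN KO MCD (94409 to 127386), and none of the 14 was at 0. On chow 4 of the 14 were lower and 1 higher in FLCN KO (median -0.28), which became 0 lower and 1 higher without the 5 libraries with few uniquely mapped reads. The part of this shift in the fall of the members was not tested, and the members' values under scaling on these genes are given above.

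Genes of monocyte-derived cells and of stellate cells rose on the diet in Cre. All 10 genes of monocyte-derived cells and neutrophils rose in Cre (summed median 73.7 CPM in Cre Chow, 359 in Cre MCD) and 7 of 10 in FLCN KO (101 to 242 CPM), with 6 of the 10 differing in response. Lyz2 was the most abundant over all libraries (mean 106 CPM), but in FLCN KO MCD Gpnmb had a mean of 137 CPM of a summed 267. Of 10 stellate cell and fibroblast genes, 8 rose in Cre (351 to 663 CPM, Dcn the most abundant) and 1 rose and 1 fell in FLCN KO (421 to 433 CPM), and 7 were lower in FLCN KO on MCD, or 4 without Cre MCD 3. Their part in the members' values was not tested.

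Across the 22 libraries, Pearson's r of log2 CPM was highest with Ces2a for Otc (0.99), with Hpd for Gls2 (0.987), with Hsd11b1 for Hal (0.974), with Arhgef11 for Cps1 (0.963), with Cyb5b for Slc25a15 (0.963), with Uox for Sds (0.947), with Hgfac for Asl (0.926) and with Saraf for Nags (0.908). For Ass1 it was the pseudogene Gm5424 (0.997). For the mean of the 9 members the 5 nearest genes were Mthfd1 (0.996), Pecr (0.985), Hpd (0.983), Slc25a23 (0.980) and Hgd (0.980). The 22 points share the diet contrast and the scaling, so these values describe likeness only.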

How the data were processed

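The authors deposited 1 table of raw gene counts for 22 mouse liver libraries. Per the labels and the study's methods, reads were demultiplexed with bcl2fastq, trimmed with Trimmomatic, aligned to GRCm38 with STAR and counted per gene with HTSeq. Adapters carried molecular identifiers, and no collapsing of duplicates is stated, so counts may include duplicates. Groups follow the labels, and nothing in the table was left out (0 columns not used). Counts were fitted in R 4.3.3 with edgeR 4.0.16 (TMM, mean count filter of 10, 1 quasi-likelihood fit of the 4 groups, Benjamini-Hochberg adjustment over 14062 genes, calls at an adjusted p under 0.05). Unless another test is named, every adjusted p is from this edgeR test. Single members were also tested by a two-sided exact permutation test of log2 CPM over livers, unadjusted. Alternatives were limma 3.58.1 (voom), DESeq2 1.42.0, other scalings, filters and library subsets. The method was tested on simulated data, recovering 72.4% and 92.2% of genes changed by 1 and 2 on the log2 scale in the Cre diet comparison and 57.3% and 82.5% for the interaction. In each simulation 200 of 14062 genes were changed, in both directions. In the data 57.5% of tested genes were called in the Cre diet comparison. The simulation therefore does not cover how scaling bears on so broad a change.

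The 9 members and the 18 other gene lists were chosen with earlier results of these data known. Ratios, alternatives by sex, Y-gene counts or muscle genes, single libraries left out for list genes, and list counts under other scalings or without doubted libraries were chosen after the data were seen. Named besides the members and Flcn were Sdsl (a paralog of Sds), Glul, and from each list up to 3 called genes per comparison with the largest change and a mean of at least 1 CPM, of which some are given. Some genes of the set and of its lists are not reported here. Genes most like the members were taken by Pearson's r of log2 CPM, 1 for each member and 5 for their mean. Positions are from GENCODE M21 (GRCm38). Counting error is small at these depths, and p-values rest on the spread between mice.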

Additional observations from a re-analysis of the deposited data

Results flagged for a closer look

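The response to the MCD diet differed between the genotypes for Sds (1.29, edgeR adjusted p = 0.028), less negative in FLCN KO. It was not called with scaling on hepatocyte genes (0.97, edgeR adjusted p = 0.0763), without the 5 libraries with few uniquely mapped reads (1.24, 0.128), without the 4 females with Y-gene counts (1.24, 0.16), in males alone (1.06, 0.561), or without Cre MCD 1, Cre MCD 5 or FLCN KO Chow 4. By Dixon's gap test at the 95% level 0 of the 36 groups of members held an outlying liver, where chance alone gives about 1 in 20. Sds in FLCN KO MCD 1, the high liver that sets much of the Sds difference on MCD, came close, with a gap of 0.615 of the group's range against a critical value of 0.625.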

How the results depend on the processing

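The diet calls of 9 members in each genotype stayed 9 with limma-voom, DESeq2, RLE factors, both other filters, the sex covariate, the replicate block and each library left out (9 to 9). Other counts depended on the setting, and the cause was not tested. They are counts of members, and counts over all genes are given for some of these settings only. Where those are not given, a change in the number of members called cannot be set against a general change in calls. With DESeq2 3 members were called on MCD (Asl, Nags, Hal) and 2 for the interaction (Asl, Sds). With scaling on hepatocyte genes 5 were called for the Cre diet, 3 for the FLCN KO diet and 0 for the interaction. With only the groups compared there was 1 on chow (Sds) and 1 on MCD, without the 5 libraries with few uniquely mapped reads 0 for the interaction, and without Cre MCD 3, the muscle library, 4 on MCD and 3 for the interaction. Females alone gave 1 on chow (Sds), 4 on MCD and 2 for the interaction (627, 2104 and 1219 of 14095 genes), and males alone 5 for the FLCN KO diet, 0 on MCD and 0 for the interaction. Without the 4 females with Y-gene counts there were 8 for the FLCN KO diet (all but Cps1), 0 on MCD and 0 for the interaction. Without the 3 libraries with over 50 CPM of muscle genes there were 3 on MCD (Nags, Sds, Hal) and 2 for the interaction (Sds, Hal). With each library left out in turn, 0 to 1 were called on chow (Sds without FLCN KO MCD 1), 0 to 4 on MCD (0 without Cre MCD 1, 2 or 5 or FLCN KO MCD 1, most without Cre MCD 3) and 0 to 3 for the interaction (0 without Cre MCD 1 or 5, most without Cre MCD 3).

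Over all groups the numbers of livers do not pair them (mean correlation of same-numbered deviations 0.00613 over 31 pairs). Between Cre MCD and FLCN KO MCD the 5 same-numbered correlations ran from 0.062 to 0.262 (mean 0.129), beside a mean of -0.026 for differently numbered livers. With the replicate block 1 member was called on MCD and 0 for the interaction, where Nags on MCD (-0.39, edgeR adjusted p = 0.0762), the Sds interaction (1.21, 0.0929) and Flcn on chow (-0.57, 0.0528) were not called, the Slc25a15 interaction was 0.031, and 552 genes were called for the interaction.

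Values that changed sign were near 0 in most cases. With library totals Flcn was 0.30 for the Cre diet, Ass1 0.0073 and Slc25a15 0.071 on chow, and the Ass1 interaction -0.15. With scaling on hepatocyte genes Nags was 0.36, Slc25a15 0.13 and Flcn 0.71 for the Cre diet, Asl 0.079 for the FLCN KO diet, and on chow Otc 0.092, Ass1 0.16, Asl 0.11, Nags 0.080, Slc25a15 0.23 and Hal 0.13, with interactions of -0.27 for Ass1 and -0.014 for Gls2. The Ass1 interaction was -0.00057 with no filter, -0.017 with 10 counts in every library, -0.17 without the libraries with few uniquely mapped reads and -0.024 in females. Ass1 on chow was 0.046 without those libraries and 0.049 in females. On MCD Cps1 was 0.059 and Gls2 0.019 without Cre MCD 3, and Cps1 0.028, Gls2 0.042 and Flcn 0.012 without all 3 muscle libraries. In females on MCD Cps1 was 0.10, Ass1 0.025, Gls2 0.20 and Flcn 0.24. In males Flcn was 0.13 for the Cre diet, Otc -0.39 on MCD and its interaction -0.17. With single libraries left out, the Ass1 interaction from -0.084 to 0.091, Cps1 on MCD from -0.15 to 0.059, Gls2 on MCD from -0.21 to 0.019 and Flcn for the Cre diet from -0.26 to 0.013.

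Over all genes, scaling on hepatocyte genes called 9548 for the FLCN KO diet (6328 by the edgeR fit reported) and 3281 on chow (1212). Without the libraries with few uniquely mapped reads 495 were called on chow and 783 for the interaction (1242). Males alone gave 4685 for the Cre diet (8089), 2905 for the FLCN KO diet, 335 on chow, 720 on MCD (2333) and 63 for the interaction. Without the females with Y-gene counts there were 558 on chow, 1319 on MCD and 176 for the interaction. Without the 3 muscle libraries there were 1212 on MCD and 660 for the interaction. Leaving out single libraries gave 669 to 1428 on chow, lowest without FLCN KO Chow 4, and 807 to 1422 for the interaction, lowest without FLCN KO Chow 4 and 817 without Cre MCD 1. Lower and higher calls for the Cre diet were 3968 and 4121, 1752 and 7896 with library totals, and 842 and 10744 with scaling on hepatocyte genes. For the FLCN KO diet they were 3166 and 3162, 1733 and 5800, and 945 and 8603. On chow they were 436 and 776, 125 and 1449, and 77 and 3204, and for the interaction 779 and 463, 1235 and 177, and 1564 and 79. On MCD they were 1199 and 1134, and 747 and 1001 with scaling on hepatocyte genes.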

Other observations

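On the MCD diet 3 of 10 Kupffer cell and macrophage genes rose and 2 fell in Cre, and 4 fell in FLCN KO. Of all tested genes 29.3% were called higher and 28.2% lower in Cre, and 22.5% and 22.5% in FLCN KO. Of 7 endothelial genes 4 fell and 1 rose in Cre and 5 fell in FLCN KO, of 6 bile duct genes 3 rose in Cre and 0 were called in FLCN KO by edgeR, and of 6 tested lymphocyte genes 1 rose in Cre and 4 fell in FLCN KO. Of 5 tested red blood cell genes 3 rose in Cre and 1 fell in FLCN KO. With scaling on hepatocyte genes 8 Kupffer cell genes and 3 endothelial genes rose in Cre and 0 of either fell. All 10 skeletal muscle genes rose in Cre, and without Cre MCD 3, 7 of the 8 tested rose, but unevenly between livers, with summed levels of 2.45 and 1.18 CPM in Cre MCD 2 and 5 beside 1.26 to 6.35 CPM in Cre Chow. Of 8 pancreas genes 1 passed the filter, and of 5 adipose genes 0 did.

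Of the 17 tested genes that handle glutamine and ammonia outside the cycle, 4 differed between the genotypes in their response to the MCD diet. The response in FLCN KO was lower for 3 and higher for 1 (5.54% and 3.29% of all tested genes). Among the 4 were the transporter genes Rhbg and Slc1a4 (edgeR adjusted p = 0.00272 and 0.00735). Rhbg, an ammonia transporter, rose by 1.04 in Cre and fell by 0.80 in FLCN KO, with a difference in response of -1.85. Slc1a4, a neutral amino acid transporter, fell by 2.39 in FLCN KO and had a value of -0.17 in Cre, with a difference in response of -2.22.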
